A study of Mus musculus with 9 samples.

Results

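The genes described here are 9 members of the Hedgehog pathway in sorted mouse mammary epithelium, the transcription factors Gli1, Gli2 and Gli3, the receptor Ptch1, the transducer Smo, the inhibitors Sufu and Hhip and the ligands Shh and Ihh. They were chosen by name (GLI1, GLI2, GLI3, PTCH1, SMO, SUFU, HHIP, SHH and IHH in the array table), and all 19 probes that the deposited table assigns to these names were taken, out of 45281 probes and 30774 names. A probe was called detected on an array when its deposited detection fraction, which ranks its signal against negative control beads, was above 0.99, and it was tested when this held on at least 3 of the 9 arrays. By this rule 9 of the 19 probes and 5 of the 9 genes were tested. Earlier results of the same arrays were known when the members were chosen, and Gli2 was already among them, so its p-values below are no independent evidence.

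Lgr5+ basal, Lgr5- basal and luminal populations were compared, with 3 arrays each, sorted by flow cytometry from mammary glands of 10-week-old virgin C57BL/6 mice. The mice of all 3 groups bear the Lgr5-GFP-IRES-CreERT2 allele, which places GFP and a tamoxifen-inducible Cre under control of the Lgr5 gene, whose product is an R-spondin receptor. GFP therefore reports Lgr5 expression in cells of the outer, myoepithelial layer (basal) and the sort split these cells by it, while the luminal group comes from the layer that lines the ducts and its Lgr5 status is labelled wild-type. Each group has an array from each of pools 1, 2 and 3, with pools 1 and 2 on BeadChip 1 and pool 3 on BeadChip 2. The labels do not state how many animals a pool holds. The p-values measure only the spread between pools within a group, estimated over all 3 groups, and the main fit has no term for pool. Values are the authors' normalized log2 intensities, and differences are differences between group means on that scale.

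Hedgehog ligands are secreted proteins that bind Ptch1 and so release Smo, a membrane protein that Ptch1 otherwise holds inactive at the primary cilium. Active Smo frees the Gli factors from Sufu, upon which Gli2 acts mainly as an activator of transcription, while Gli3 is cut to a repressor when no ligand is present. Gli1, Ptch1 and Hhip are themselves target genes, so that their transcripts are widely read as a measure of pathway output. In the mouse mammary gland Gli2 is known in virgin glands mainly from the stroma and Gli3 from the embryonic bud, where its repressor form is needed.

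The markers of the sort are given first. Lgr5 stood at 10.09 ± 0.49 in Lgr5+ basal cells and 8.44 ± 0.44 in Lgr5- basal cells (mean ± SD, n = 3 arrays, limma adjusted p = 0.0225), and it was detected on no luminal array. All 6 basal markers (among them Krt5, Krt14, Acta2 and Trp63) were higher, and all 6 luminal markers (among them Krt8, Krt18 and Epcam) lower, in each basal group against luminal cells by limma, and none of these 12 passed between the basal groups. Between 15235 and 17423 probes were detected per array, and arrays of a group correlated with r of 0.967 to 0.987 across tested genes. Luminal replicate 2 stood apart in its basal markers, whose summed linear level was 17380 there, against 2616 and 2568 on the other luminal arrays and 64332 to 76017 on the basal arrays. Without it the same members passed against luminal cells: in Lgr5+ basal cells Gli2 differed by 1.79, Gli3 by 1.72, Smo by 0.97 and Sufu by 0.84, and in Lgr5- basal cells Gli3 by 1.72, Smo by 0.74 and Sufu by 0.65. Lgr5+ basal replicate 2 stood apart in its endothelial markers, whose summed linear level was 4538 there, against 1055 and 1623 on the other Lgr5+ basal arrays and 1787 to 2073 on the Lgr5- basal arrays. Because cells were pooled, fewer cells with a transcript and less transcript per cell cannot be told apart.

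The promoters of 3 genes are shown because they carry the contrast described below: Gli2, which differed between the basal groups, Gli3, which did not pass between them, and Ptch1, the feedback receptor. Each line gives the 250 bases before the transcription start listed by RefSeq, on build GRCm38.p6, 5′ to 3′ along the gene.
Gli2, chr1:119053620-119053869, minus strand: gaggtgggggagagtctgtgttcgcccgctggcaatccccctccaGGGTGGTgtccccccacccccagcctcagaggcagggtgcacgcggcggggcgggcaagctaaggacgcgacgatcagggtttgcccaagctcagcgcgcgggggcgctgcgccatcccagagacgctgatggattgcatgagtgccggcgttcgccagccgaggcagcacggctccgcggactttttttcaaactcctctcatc
Gli3, chr13:15463473-15463722, plus strand: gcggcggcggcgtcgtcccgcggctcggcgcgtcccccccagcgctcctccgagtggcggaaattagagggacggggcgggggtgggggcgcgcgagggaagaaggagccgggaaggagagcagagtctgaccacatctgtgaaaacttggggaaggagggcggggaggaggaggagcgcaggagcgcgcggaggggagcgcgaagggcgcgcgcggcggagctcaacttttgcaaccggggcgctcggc
Ptch1, chr13:63565736-63565985, minus strand: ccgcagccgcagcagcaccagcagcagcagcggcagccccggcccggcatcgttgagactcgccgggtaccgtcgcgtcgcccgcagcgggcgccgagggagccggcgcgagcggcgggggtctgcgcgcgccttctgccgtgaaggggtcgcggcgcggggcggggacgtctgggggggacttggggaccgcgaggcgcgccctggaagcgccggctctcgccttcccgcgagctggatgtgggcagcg
Capitals mark the letters ACCACCC, the core of the sequence that Gli factors bind, or its reverse complement GGGTGGT. This core was found in the Gli2 window, starting 205 bases before the listed start, and in none of the other 6 member promoters in the table (Gli3, Ptch1, Smo, Sufu, Hhip and Ihh). It was present on either strand in 3.92% of all 32851 promoter windows of this length. The longer form GACCACCCA, which contains the core, was found in 0.225% of the windows and in none of the 7 member promoters. Gli1 and Shh were not among the listed promoters.

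A signal above background was found for 5 of the 9 genes, Gli2, Gli3, Ptch1, Smo and Sufu. Gli3, Ptch1, Smo and Sufu each had a probe detected on all 9 arrays, while the only detections of Gli2 were on the 3 Lgr5+ basal arrays, by a single probe. Neither ligand was detected: both probes of Shh and both of Ihh stayed at or below a detection fraction of 0.977 on every array. Hhip, the membrane protein that binds and sequesters ligand, and Gli1, the target gene most often used as a readout, each had a single probe that was detected on no array. Gli1 lay between 4.40 and 5.08 on the 9 arrays, with its highest detection fraction, 0.95, on Lgr5- basal replicate 1. A probe that misses the threshold shows only that the transcript was not measurable with it, and each of these 6 ligand, Hhip and Gli1 probes was also set aside by the authors.

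Around the threshold, the probes just inside were those of Gli2 and the second Gli3 probe, with 3 arrays each, and the second Sufu probe, with 4. Just outside there was no probe with 1 or 2 arrays, and the nearest were a Sufu probe whose fraction reached 0.978 on Lgr5+ basal replicate 3 and a Shh probe that reached 0.977 on Lgr5- basal replicate 2. All 10 untested probes were among those the authors set aside, and all 9 tested ones were kept by them.

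**Figure D1:**
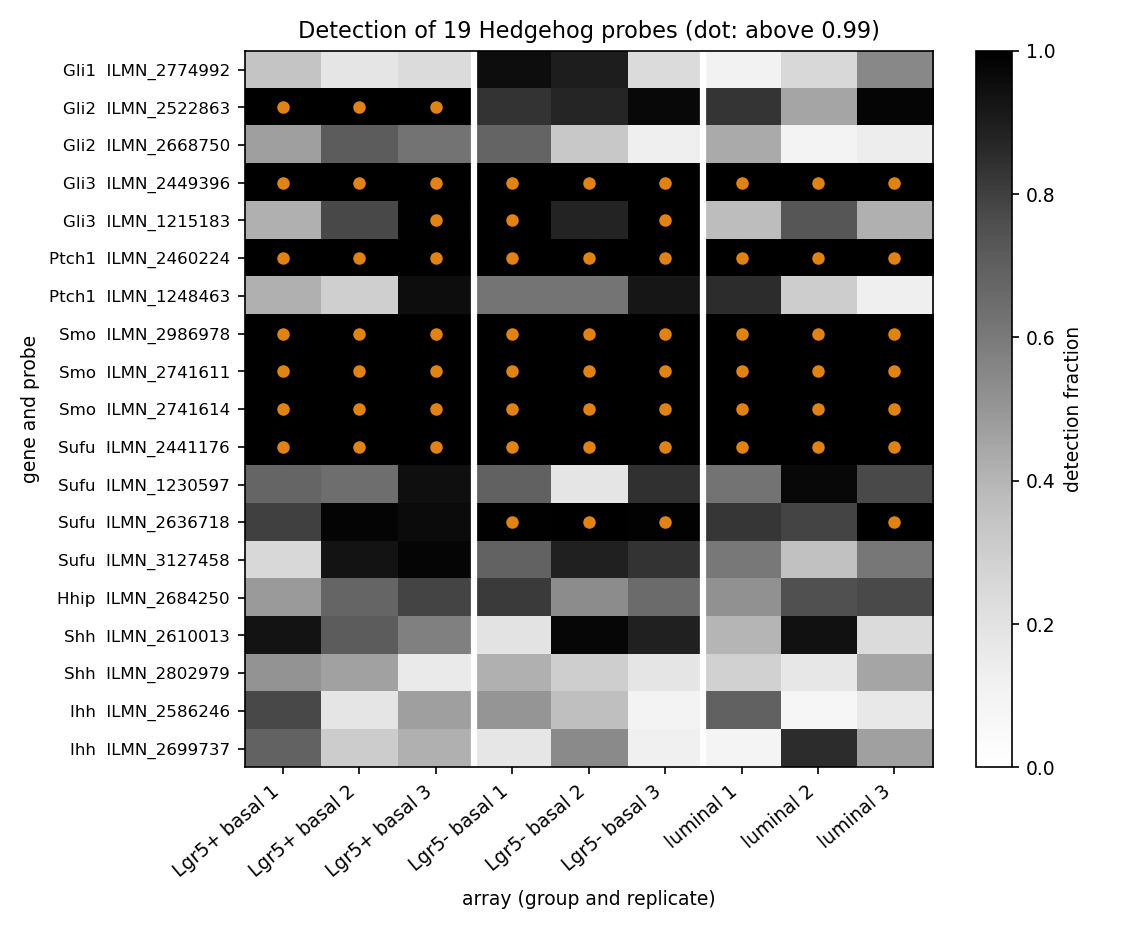
Detection fraction (grey scale, 0 to 1) of the 19 probes of the 9 Hedgehog genes (rows, gene and probe) on the 9 arrays (columns, by group and replicate), with a dot where it is above 0.99. Gli2 has dots on the 3 Lgr5+ basal arrays alone, the strongest probes of Gli3, Ptch1, Smo and Sufu have them on all 9, and Gli1, Hhip, Shh and Ihh have none.

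Of the Gli factors, Gli2 was higher in Lgr5+ than in Lgr5- basal cells. Its probe ILMN_2522863 read 6.79, 6.70 and 7.08 in Lgr5+ basal replicates 1, 2 and 3, against 4.85, 4.90 and 5.07 in Lgr5- basal cells, and 4.90, 4.57 and 5.24 in luminal cells. The Lgr5+ basal arrays lay above all 6 others with a gap of more than a log2 unit, while the Lgr5- basal and luminal arrays overlapped. Against Lgr5- basal cells the level was at least 2.84-fold higher (21.3% of all genes had basal groups that did not overlap; measured means 6.86 ± 0.20 and 4.94 ± 0.12, SD, n = 3 each, limma adjusted p = 0.00224 over 12148 genes). The log2 difference was 1.93, 1.80 and 2.01 within pools 1, 2 and 3. The measured difference was 1.91 over all arrays (SE 0.196), with the Lgr5- basal side at background.

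The bound is used because Gli2 was not well above background on any Lgr5- basal or luminal array. On such arrays the smallest level called detected among all probes stands in for a lower reading. The bound thus allows for background on the corrected scale alone, and takes no account of the spread between arrays. Gli2 also entered the test only through the Lgr5+ basal arrays, where it is high, so that it could not have been tested without differing. Before background correction the probe read 222.6, 241 and 351.8 in Lgr5+ basal cells, against 158.3, 167.1 and 191.2 in Lgr5- basal cells, and 151.1, 155.1 and 166.8 in luminal cells, on a linear scale. The lowest detected intensity ran from 178.9 to 205.4 on the Lgr5+ basal arrays, so the signal in these cells was low too. Without background correction the log2 difference from Lgr5- basal cells was 0.60 (limma adjusted p = 0.0114) and that from luminal cells 0.62 (adjusted p = 0.000218). The second Gli2 probe, ILMN_2668750, lay between 4.39 and 4.71 on all 9 arrays and was detected on none, so it gives no second reading.

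**Figure D2:**
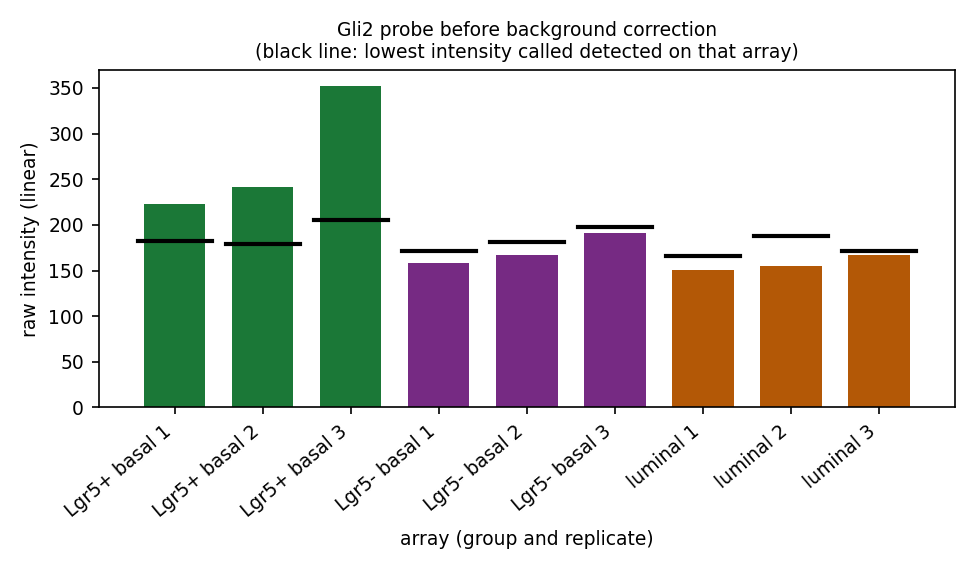
Raw linear intensity of the tested Gli2 probe on each of the 9 arrays (bars, by group and replicate), with a black line at the lowest intensity called detected on that array. The bars of the 3 Lgr5+ basal arrays, at 222.6 to 351.8, pass their lines, and those of the 6 other arrays, at 151.1 to 191.2, stay below theirs.

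The same probe set Lgr5+ basal cells apart from luminal cells, at least 2.52-fold higher (adjusted p = 1.37e-05). Between Lgr5- basal and luminal cells, both below the detection threshold, no fold is given, and the difference of 0.04 did not pass (adjusted p = 0.899). The order of Gli2 levels was therefore Lgr5+ basal first, with Lgr5- basal and luminal cells not separable. Within BeadChip 1 the difference between the basal groups was 1.87 (adjusted p = 0.0116), within BeadChip 2, which holds 1 array per group, it was 2.01, and with BeadChip as a block the adjusted p was 0.000706. Without Lgr5+ basal replicate 2, the array with high endothelial markers, the difference was 1.99 (adjusted p = 0.00995).

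Since Gli2 is also expressed by stromal cells, markers of other cell types are given beside it. Of 10 fibroblast markers, all tested, none was higher and Dcn, the proteoglycan decorin, was lower in Lgr5+ than in Lgr5- basal cells. Their summed linear level was 6159 to 7011 in Lgr5+ basal cells, against 11985 to 12880 in Lgr5- basal cells, a direction set by Dcn. Without Dcn, left out after its values were seen, the 9 other markers summed to 2913 to 3269 in Lgr5+ basal cells. They summed to 2375 to 2882 in Lgr5- basal cells, with no overlap and higher in Lgr5+ basal cells. Fbln1 was the strongest of these 9 in both basal groups, at 10.88 in Lgr5+ and 10.49 in Lgr5- basal cells. It thus weighs most in this linear sum, which does not speak for the 9 markers as a group. In luminal cells the 9 markers summed to 2914 to 4667, with Col6a3 at 11.52, against 8.64 in Lgr5+ and 8.65 in Lgr5- basal cells. Of the 10 markers, 8 were higher and only Col6a3 was lower in Lgr5+ basal than in luminal cells by limma. In Lgr5- basal cells 7 were higher than in luminal cells, and again only Col6a3 was lower. Pdgfra, a defining fibroblast receptor, differed by 0.10 between the basal groups (adjusted p = 0.881). Fbln1 differed by 0.39 (adjusted p = 0.551), and its basal groups did not overlap, as for 21.3% of all genes. Col1a1 differed by 0.23, Pdgfrb by 0.20, Col1a2 by 0.11 and Col3a1 by 0.07. Lum (-0.31), Dpt (-0.09) and Col6a3 (-0.01) had the opposite sign. No fibroblast marker other than Dcn passed, and the median difference of the list was 0.08. Of 6 pericyte markers 5 were tested, and their summed level was 1234 to 1614 in Lgr5+ basal cells, against 810 to 974 in Lgr5- basal cells, with Mcam higher (1.04, adjusted p = 0.0411) and Kcnj8 detected on no array. The other 4 did not pass, at 0.43 for Rgs5, -0.09 for Cspg4, -0.14 for Abcc9 and -0.16 for Notch3, and the median of the list was -0.09. Without Mcam, left out after its values were seen, they summed to 246 to 373 in Lgr5+ basal cells, against 270 to 360 in Lgr5- basal cells, and the groups overlapped. The adipocyte list had 2 tested of 6 markers, of which Cfd was at least 5.45-fold higher (adjusted p = 0.0219) and Lep did not pass, at -1.02 (adjusted p = 0.32), while Fabp4, Plin1 and Cidec were detected on no array. Its sum was 192 to 630 in Lgr5+ basal cells, against 160 to 339 in Lgr5- basal cells, and the groups overlapped. Summed endothelial (1055 to 4538 against 1787 to 2073), haematopoietic (513 to 981 against 561 to 1370) and Schwann cell levels (3786 to 4442 against 4220 to 4402) overlapped as well. Of these lists Cd3e, a T cell gene, passed and was lower in Lgr5+ basal cells (-0.88, adjusted p = 0.0304). Kdr, Ptprc, Tyrobp, S100b and Cdh19 of these lists were detected on no array. The part of fibroblast, pericyte and adipocyte markers in the Gli2 difference was not tested.

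Gli3, the factor that is processed to a repressor, separated the layers and not the 2 basal groups. Probe ILMN_2449396 read 10.18, 9.88 and 9.88 in Lgr5+ basal cells, against 9.97, 9.97 and 9.99 in Lgr5- basal cells, and 8.18, 8.50 and 8.34 in luminal cells. All 6 basal arrays lay above all 3 luminal arrays, and the basal groups overlapped. Of all genes, 54.8% did not overlap in either direction between Lgr5+ basal and luminal cells, and 55.3% between Lgr5- basal and luminal cells. Against luminal cells Gli3 was 3.11-fold higher in Lgr5+ basal cells (log2 difference 1.64, SE 0.156, limma adjusted p = 9.3e-06), and 3.11-fold higher in Lgr5- basal cells (1.64, adjusted p = 9.06e-06). These comparisons share the luminal arrays, as do all pairs of basal and luminal differences below. Between the basal groups the interval of the difference ran from -0.35 to 0.35 (95%, adjusted p = 1), a range that the Gli2 difference exceeds.

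The second Gli3 probe, ILMN_1215183, was near background, with 1 of 3 Lgr5+ basal, 2 of 3 Lgr5- basal and 0 of 3 luminal arrays detected. It was higher in Lgr5- basal than in luminal cells (0.77, adjusted p = 0.0429 over 17712 probes, where 42.6% of all probes passed). It did not pass in Lgr5+ basal against luminal cells (0.31, adjusted p = 0.376) or between the basal groups (-0.46, adjusted p = 0.478), where 48% and 0.965% of all probes passed. Both Gli3 probes thus gave the same sign against luminal cells, and the weaker one passed in a single comparison.

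**Figure D3:**
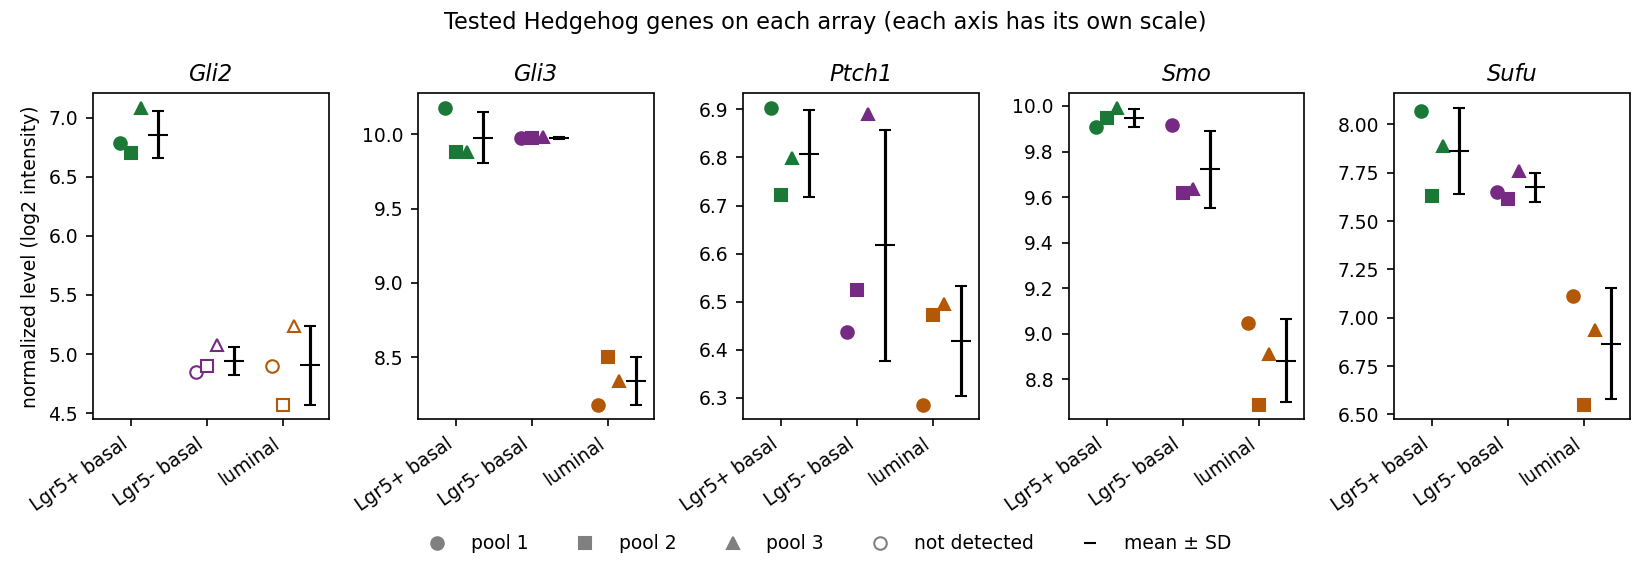
Normalized log2 level of the probe standing for Gli2, Gli3, Ptch1, Smo and Sufu on each array, by group (x axis), with the pool as the symbol, open symbols where the probe was not detected, and the mean ± SD (n = 3) beside each group; each panel has its own y axis. Gli2 is high on the 3 Lgr5+ basal arrays alone, whereas Gli3, Smo and Sufu are high on all 6 basal arrays, and Ptch1 spans a narrow range from 6.29 to 6.90.

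Ptch1, at once the Hedgehog receptor and a target gene, did not pass in any comparison. Probe ILMN_2460224 read 6.90, 6.72 and 6.80 in Lgr5+ basal cells, against 6.44, 6.52 and 6.89 in Lgr5- basal cells, and 6.29, 6.47 and 6.49 in luminal cells. Lgr5- basal replicate 3 reached the level of the Lgr5+ basal arrays, and the basal groups overlapped. The difference between them was 0.19 (95% interval -0.18 to 0.56, limma adjusted p = 0.676). The Lgr5+ basal arrays all lay above the luminal ones by this probe, which held for 54.8% of all genes in that comparison in either direction, and the difference was 0.39 (adjusted p = 0.0747). Lgr5- basal and luminal cells overlapped and differed by 0.20 (adjusted p = 0.365). The levels thus ran from Lgr5+ basal to Lgr5- basal to luminal cells, with no neighbours that differed beyond their spread. The second Ptch1 probe was detected on no array.

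Smo, the transducer that Ptch1 holds in check, followed Gli3 in its strongest probe. ILMN_2986978 read 9.91, 9.95 and 9.99 in Lgr5+ basal cells, against 9.92, 9.62 and 9.63 in Lgr5- basal cells, and 9.05, 8.69 and 8.91 in luminal cells. Every basal array lay above every luminal array, while Lgr5- basal replicate 1 fell among the Lgr5+ basal values. Groups did not overlap for 54.8% of all genes in Lgr5+ basal against luminal cells, and for 55.3% with Lgr5- basal cells. Against luminal cells Smo was 2.09-fold higher in Lgr5+ basal cells (log2 difference 1.07, adjusted p = 0.000262) and 1.79-fold higher in Lgr5- basal cells (0.84, adjusted p = 0.0014). Between the basal groups the difference was 0.23 (95% interval -0.13 to 0.58, adjusted p = 0.597).

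The other 2 Smo probes, both detected on all 9 arrays, did not show the same picture. ILMN_2741614 read 6.21, 6.89 and 7.40 in Lgr5+ basal cells, against 7.29, 7.42 and 7.11 in Lgr5- basal cells, and 6.93, 7.03 and 6.77 in luminal cells. ILMN_2741611 read 6.24, 6.04 and 7.13 in Lgr5+ basal cells, against 6.99, 6.84 and 6.83 in Lgr5- basal cells, and 6.52, 6.14 and 6.18 in luminal cells. Lgr5+ basal replicate 3 was the highest of its group by both, and the spread within that group, SD 0.60 and 0.58, was wider than in the other groups. In Lgr5+ basal against luminal cells these probes differed by -0.07 (adjusted p = 0.838 over probes) and 0.19 (adjusted p = 0.579), and in Lgr5- basal against luminal cells by 0.36 (adjusted p = 0.301) and 0.61 (adjusted p = 0.0848). The call of Smo against luminal cells therefore rests on 1 of its 3 probes. Between the basal groups they differed by -0.44 and -0.42 (adjusted p = 0.478 and 0.497), opposite in sign to the strongest probe.

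Sufu, which binds Gli factors in the cytoplasm, was likewise higher in both basal groups than in luminal cells. ILMN_2441176 read 8.07, 7.63 and 7.89 in Lgr5+ basal cells, against 7.65, 7.62 and 7.76 in Lgr5- basal cells, and 7.11, 6.55 and 6.93 in luminal cells. Basal and luminal arrays did not overlap, as for 54.8% of all genes with Lgr5+ and 55.3% with Lgr5- basal cells, and the basal groups did. Against luminal cells Sufu was 1.99-fold higher in Lgr5+ basal cells (log2 difference 1.00, adjusted p = 0.00126) and 1.75-fold higher in Lgr5- basal cells (0.81, adjusted p = 0.00485). Without background correction these differences were 0.53 (adjusted p = 0.00154) and 0.41 (adjusted p = 0.00688). The basal groups differed by 0.19 (95% interval -0.23 to 0.60, adjusted p = 0.735).

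A second tested Sufu probe, ILMN_2636718, was detected on 0 of 3 Lgr5+ basal, 3 of 3 Lgr5- basal and 1 of 3 luminal arrays. It read 4.84, 5.24 and 4.99 in Lgr5+ basal cells, against 5.64, 5.59 and 5.25 in Lgr5- basal cells, and 4.89, 4.80 and 5.85 in luminal cells. It passed in no comparison, with differences of -0.47 between the basal groups (adjusted p = 0.451 over probes), -0.15 in Lgr5+ basal against luminal cells (adjusted p = 0.668) and 0.32 in Lgr5- basal against luminal cells (adjusted p = 0.384). Both remaining Sufu probes were detected on no array.

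**Figure D4:**
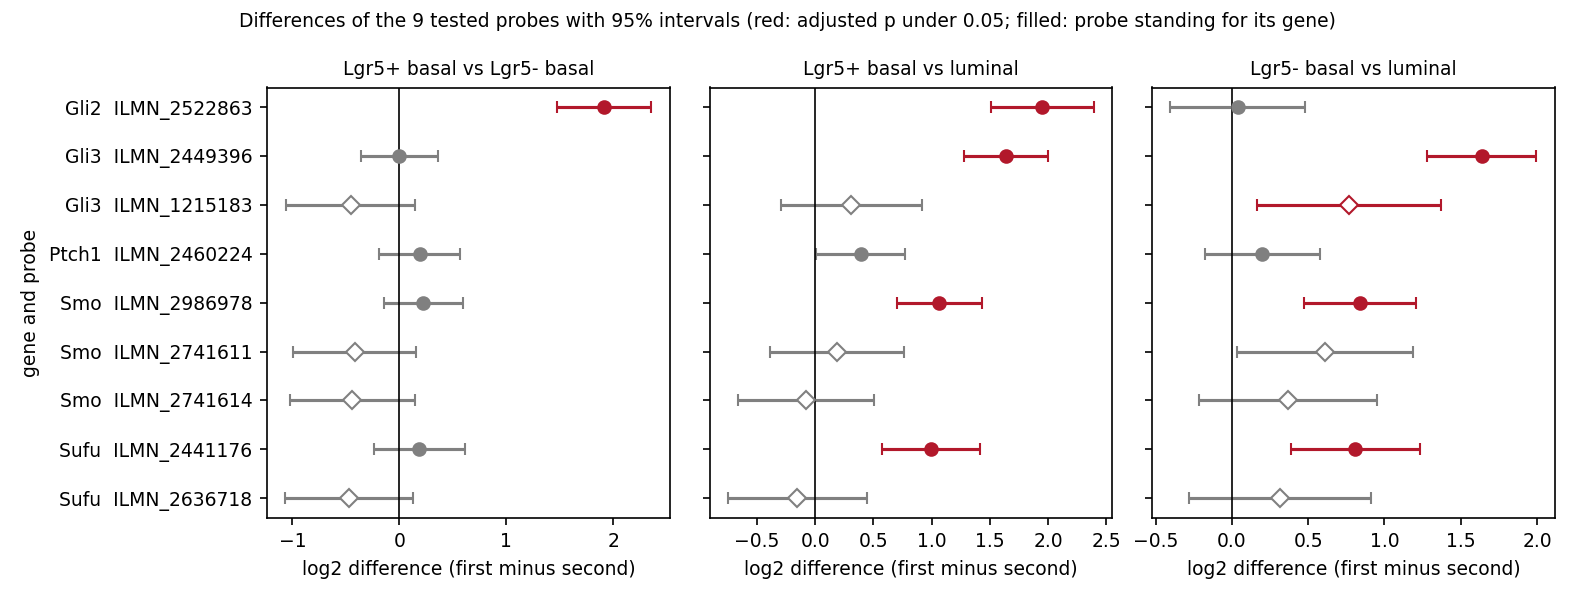
Log2 differences with 95% intervals (x axis, first group minus second) of the 9 tested probes in the 3 comparisons, fitted over 17712 probes; red marks an adjusted p under 0.05, filled circles the probe that stands for its gene and open diamonds the other probes. Gli2 alone is red between the basal groups, at 1.91, and the further probes of Gli3, Smo and Sufu lie below 0 there, with intervals that include 0.

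Counted over genes, 1 of the 5 tested members (Gli2) passed in Lgr5+ against Lgr5- basal cells, where 1.05% of all 12148 genes passed, 0.502% higher and 0.552% lower. In Lgr5+ basal against luminal cells 4 of 5 were higher (Gli2, Gli3, Smo and Sufu) and none lower, where 49.1% of all genes passed in either direction 24.8% being higher and 24.3% lower. In Lgr5- basal against luminal cells 3 of 5 were higher (Gli3, Smo and Sufu) and none lower, where 44.7% of all genes passed 22% being higher and 22.7% lower. With so large a share of all genes passing against luminal cells, and 5 members tested of 9, these counts describe the members and say nothing particular of the pathway.

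Other pathway genes were taken from 3 lists by role, 73 genes in all, of which 51 were tested. Between the basal groups 1 rose, none fell and 50 did not pass (1.96% called, against 1.05% of all genes). The median difference was 0.06, against 0.02 over all genes. An unadjusted limma p under 0.05 was found for 13 of the 51, against 14% of all genes. The gene that passed was Sfrp1, a secreted Wnt antagonist listed among reported Hedgehog targets, at 11.69 ± 0.30 in Lgr5+ and 8.84 ± 0.30 in Lgr5- basal cells (log2 difference 2.85, adjusted p = 0.000348). It was among the largest changes of these arrays already known when the list was written. The kinase Stk36, related to the fly regulator Fused and named here after its values were seen, stood at 6.62 ± 0.30 in Lgr5+ and 5.28 ± 0.40 in Lgr5- basal cells (1.34, adjusted p = 0.0514). When pool entered the fit as a block, 2 genes passed, Sfrp1 (adjusted p = 0.00253) and Stk36 (adjusted p = 0.0482).

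Among ligands, proteins of ligand release and co-receptors, 7 of 14 genes were tested. None passed between the basal groups (lowest adjusted p = 0.0918, median 0.15). An unadjusted limma p under 0.05 was found for 3 of the 7, against 14% of all genes. In Lgr5+ basal against luminal cells 6 rose and 1 fell, and in Lgr5- basal against luminal cells 4 rose, 1 fell and 2 did not pass (100% and 71.4% called, against 49.1% and 44.7% of all genes). Scube3, a secreted protein of the family that helps release lipid-modified ligand, stood at 9.44 ± 0.18 in Lgr5+ basal, 8.72 ± 0.21 in Lgr5- basal and 4.62 ± 0.13 in luminal cells, where it was not detected. It was at least 15.1-fold higher in Lgr5+ basal and at least 9.18-fold higher in Lgr5- basal than in luminal cells (adjusted p = 2.25e-08 and 4.77e-08). Gpc3, a glypican that competes with Ptch1 for ligand, was higher than in luminal cells by 3.35 in Lgr5+ and 3.95 in Lgr5- basal cells (adjusted p = 9.52e-08 and 4.6e-08).

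The co-receptor Cdon went the other way, at 7.40 ± 0.11 in Lgr5+ basal, 7.25 ± 0.19 in Lgr5- basal and 9.22 ± 0.15 in luminal cells. Its difference from luminal cells was -1.83 in Lgr5+ basal cells (adjusted p = 5.23e-06) and -1.98 in Lgr5- basal cells (adjusted p = 2.9e-06). Dhh was the only one of the 3 Hedgehog ligand genes with a tested probe, near background at 5.88 ± 0.62 in Lgr5+ basal, 5.47 ± 0.35 in Lgr5- basal and 4.89 ± 0.22 in luminal cells. It was detected on 2 of 3 Lgr5+ basal, 2 of 3 Lgr5- basal and 0 of 3 luminal arrays. Dhh was higher in Lgr5+ basal than in luminal cells (measured difference 0.99, limma adjusted p = 0.019) and did not pass between the basal groups (0.40, adjusted p = 0.62). Both sides of the luminal comparison hold arrays at background, so no fold is given. Dhh also entered the test only through basal arrays. Of the co-receptors, Boc had its best probe detected on 1 of the 9 arrays and Gas1 on 0, so neither was tested.

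Of 35 cytoplasmic and ciliary regulators of Gli factors, 30 were tested and none passed between the basal groups (lowest adjusted p = 0.0514, median 0.05). An unadjusted limma p under 0.05 was found for 6 of the 30, against 14% of all genes. In Lgr5+ basal against luminal cells 5 rose, 2 fell and 23 did not pass, and in Lgr5- basal against luminal cells 6 rose, 4 fell and 20 did not pass (23.3% and 33.3% called, against 49.1% and 44.7% of all genes). Evc, which works with Evc2 at the base of the cilium to relay Smo activity, was higher than in luminal cells by 2.61 in Lgr5+ basal cells (adjusted p = 2.85e-07) and by 2.24 in Lgr5- basal cells (adjusted p = 7.76e-07). Ulk3, a kinase that acts on Gli factors, was lower, with differences of -1.19 in Lgr5+ basal cells (adjusted p = 0.000274) and -1.90 in Lgr5- basal cells (adjusted p = 8.46e-06). Grk2, a kinase that phosphorylates Smo, was also lower, with differences of -0.84 in Lgr5+ basal cells (adjusted p = 0.00116) and -1.01 in Lgr5- basal cells (adjusted p = 0.000341). Iqce, a partner of Evc at the cilium, fell in Lgr5- basal cells (-0.49, adjusted p = 0.0325) and had -0.09 in Lgr5+ basal cells (adjusted p = 0.673). Kif7, the ciliary kinesin that acts on Gli factors, was detected on no array.

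The reported target genes, 14 tested of 24, gave 9 higher, 2 lower and 3 not passing in Lgr5+ basal against luminal cells, and 7 higher, 2 lower and 5 not passing in Lgr5- basal against luminal cells (78.6% and 64.3% called, against 49.1% and 44.7% of all genes). Many of them answer to other pathways too. The D cyclins split: Ccnd2 stood at 9.55 ± 0.16 in Lgr5+ basal, 10.86 ± 0.40 in Lgr5- basal and 5.28 ± 0.59 in luminal cells, and Ccnd1 at 10.36 ± 0.32, 10.68 ± 0.17 and 13.25 ± 0.14 in the same groups. Against luminal cells Ccnd2 was higher by 4.27 in Lgr5+ basal cells (adjusted p = 7.38e-07) and by 5.58 in Lgr5- basal cells (adjusted p = 1.41e-07), measured against luminal arrays of which 1 of 3 detected it. Ccnd1 differed from luminal cells by -2.90 in Lgr5+ basal cells (adjusted p = 5.93e-07) and by -2.58 in Lgr5- basal cells (adjusted p = 1.37e-06). Between the basal groups Ccnd2 had a difference of -1.31 (adjusted p = 0.0756) and Ccnd1 of -0.32 (adjusted p = 0.523).

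Sfrp1 was at least 71.5-fold higher in Lgr5+ basal and at least 9.93-fold higher in Lgr5- basal than in luminal cells (adjusted p = 1.1e-08 and 1.02e-07), where it was detected on no array. Jag2, a Notch ligand, was at least 7.85-fold higher in Lgr5+ basal and at least 10.02-fold higher in Lgr5- basal than in luminal cells (adjusted p = 1.73e-07 and 1.02e-07). Sox9, a transcription factor of progenitor cells in several epithelia, differed from luminal cells by -0.86 in Lgr5+ and -1.33 in Lgr5- basal cells (adjusted p = 0.00114 and 5.07e-05). Bcl2, an inhibitor of cell death, was higher in Lgr5+ basal than in luminal cells (0.70, adjusted p = 0.012) and did not pass in Lgr5- basal against luminal cells (0.41, adjusted p = 0.105). Mycn was detected on no array.

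**Figure D5:**
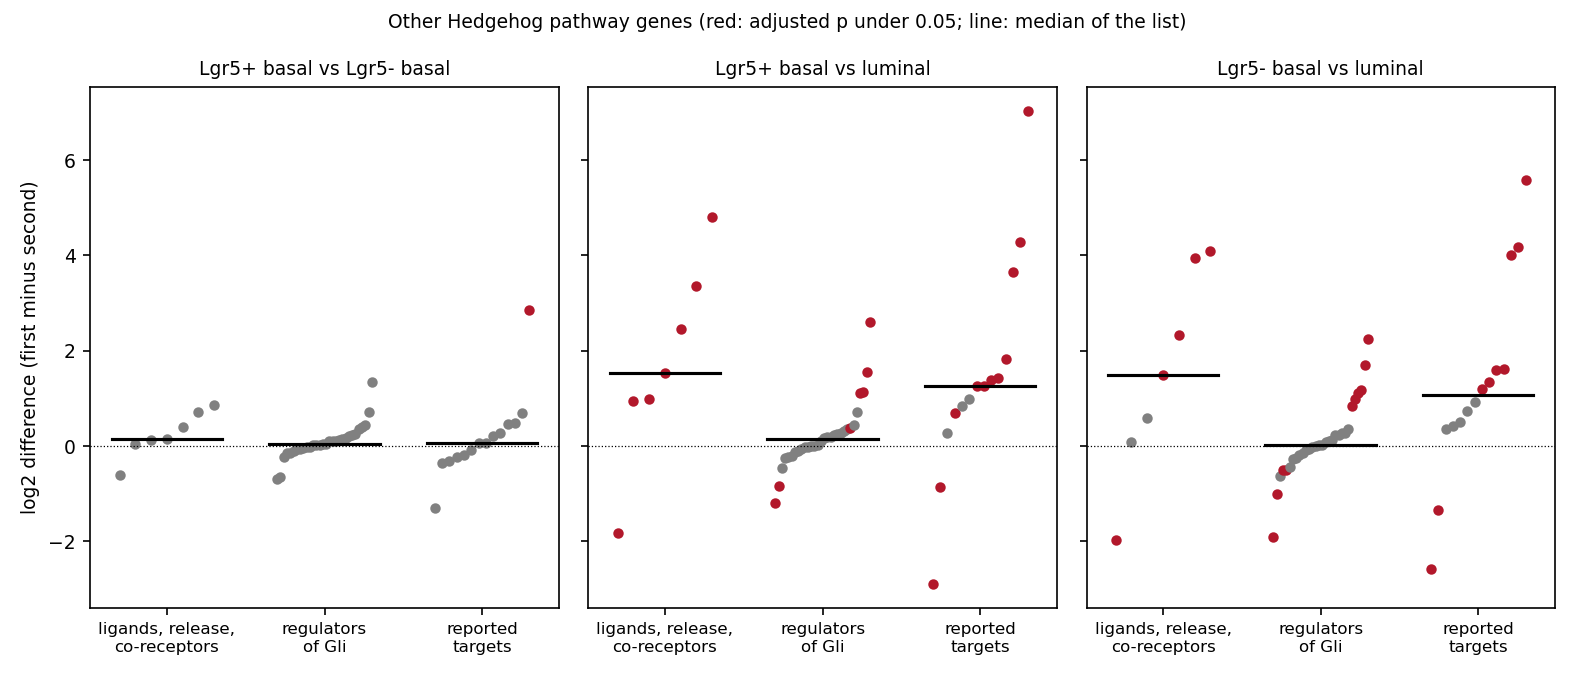
Log2 differences (y axis, first group minus second) of the 51 tested genes of the 3 other pathway lists in each comparison; each dot is a gene, red where the adjusted p is under 0.05, and the line is the median of the list. Between the basal groups a single gene, Sfrp1 at 2.85, is red, and against luminal cells the medians of the regulators are 0.14 with Lgr5+ and 0.02 with Lgr5- basal cells, while single target genes reach from -2.90 to 7.03.

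For the genes most like Gli2, clone names, predicted genes and names without a RefSeq match were left out. Of the rest, the profile over the 9 arrays most like that of Gli2 was that of Ptprd, a receptor tyrosine phosphatase (Pearson r = 0.973). Next came Dclk1, a microtubule-binding kinase (0.969), Pygl, a glycogen phosphorylase (0.96), Col8a2, a collagen chain (0.956), and Mxra8, an adhesion protein (0.941). With the names left out counted as well, 26 of 12147 other genes had r above 0.9. Each of the named genes had its highest group mean in Lgr5+ basal cells, which follows from choosing them by likeness to Gli2. Of the 9 Gli2 values behind each r, 6 lie at background. Dclk1 averaged 7.81 in Lgr5+ basal, 6.17 in Lgr5- basal and 6.10 in luminal cells, and Col8a2 averaged 7.21, 6.30 and 6.34 in the same groups. Both were detected on all 9 arrays, so that unlike for Gli2 each of their group means was measured above background.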

How the data were processed

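RNA of 9 samples of sorted mouse mammary cells was measured on Illumina MouseWG-6 v2.0 BeadChips, as biotin-labelled cRNA. Of the deposited tables, the raw one gives each probe's intensity on each array before background correction and normalization. Its detection columns, named a p-value per the file headers, held a deposited fraction that rose with the signal, and a flag marked probes the authors set aside for lack of expression or poor annotation. The second deposited table held the authors' normalized log2 values, with medians of 4.84 on all 9 arrays. Per the submitters' processing notes GenomeStudio and limma were used, with versions and steps not given in the sources used here. Normexp correction of the raw intensities (offset 16) with quantile normalization gave values within 0.0284 of the authors' on the same scale, direction and centring, so the authors' values were used. No genome build or probe sequence was given, so probes have no position here.

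Probe names were matched to RefSeq symbols (27400 probes) or synonyms (8298), and 9583 kept the table's name. Of 17712 tested probes, each of 12148 genes was represented by its probe of highest overall mean. Group means were compared with limma 3.58.1 in R 4.3.3, two-sided, on all 9 arrays (6 residual and 4.37 prior degrees of freedom), with Benjamini-Hochberg adjustment over genes, or over probes where stated, and a threshold of 0.05. The number of arrays limits the precision, and mean raw intensity ran from 428.1 to 654.4.

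Members and lists were chosen with earlier results of these data known. All members are named; of the other pathway genes, those past the threshold with the smallest p, up to 6 per direction and comparison, and a set of fixed names, of which 1 is not reported here; and the 5 genes most like Gli2. The labels give each array's pool, which pairs the groups: residuals of arrays of the same pool correlated with r of 0.229 to 0.448 between the basal groups, 0.0919 to 0.145 between Lgr5+ basal and luminal, and 0.105 to 0.36 between Lgr5- basal and luminal arrays.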

Additional observations from a re-analysis of the deposited data

How the results depend on the processing

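The member counts of 1, 4 and 3 genes were the same under all 21 alternatives. They varied the source of values, background correction, scaling, filters, probes fitted, variance model, blocks and subsets of arrays, and left out each array. Each alternative still read a member by its strongest probe, so these counts do not test the choice of probe. The weaker tested Smo and Sufu probes did not pass against luminal cells, and the second Gli3 probe passed only in Lgr5- basal cells. Gli2 between the basal groups ranged from 0.60 to 1.99, with limma adjusted p from 0.000706 to 0.0197. Gli3 between the basal groups, which lay at 0, turned positive with recomputed normexp values (0.00031), without background correction (0.0011), with median centring over tested probes (0.057) and within BeadChip 1 (0.053), ranged from -0.099 to 0.049 on leaving out single arrays, and never passed. Gli2 in Lgr5- basal against luminal cells, both at background, ranged from -0.13 to 0.20 on leaving out arrays. The count of other pathway genes between the basal groups, 1 as reported, was 4 without background correction, 3 with median centring, 2 on probes kept by the authors, 3 with a trended and robust variance, 2 with pool as a replicate block, 2 with BeadChip as a block and 3 within BeadChip 1. On leaving out single arrays it ran from 1 to 7, with 7 without Lgr5+ basal replicate 3 and 2 without luminal replicate 1 or 2. Genes that joined Sfrp1 under some of these settings were Stk36, Ccnd2, Gpc3, Scube3, Rab23, Snai1, Ulk3 and Gpc6. The count of all genes between the basal groups, 128, was 346 within BeadChip 1 and ran from 52 to 604 on leaving out arrays. It was 59, 62 and 604 when Lgr5+ basal replicate 1, 2 and 3 was left out, and 52 when Lgr5- basal replicate 1 or 2 was. The cause was not tested. The replicate block changed no call of a member. Low signal limits Gli2, Dhh and the weaker Gli3 and Sufu probes, and the size of the Gli2 difference depends on the background correction.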
